A study of Mus musculus with 6 samples.

Results

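The 8 genes described here encode the transporters that move bile acids and bile lipids through the hepatocyte: Slc10a1, Slco1a1, Slco1a4 and Slco1b2 for uptake from blood, Abcb11, Abcb4 and Abcc2 for export into bile, and Abcc3 for export back to blood. They were chosen by symbol from a fixed list. All 8 were found among the 14492 genes of the deposited table, and all 8 passed the filter on low values, a mean of at least 1 CPM. A CPM is here 1 read per 1000000 reads of a library total that the authors had scaled. Liver RNA came from 2 groups of 3 male C57BL/6J mice, which the labels also give as strain C57BL/6. All 6 mice were 8 weeks old when they were injected and began a high-fat diet (D12492), and their livers were taken 2 weeks later. One group is labelled as injected with an adenovirus, a viral vector, for overexpression of Chrna4, which encodes a nicotinic acetylcholine receptor subunit, and is called Chrna4-labelled here. The other is labelled vehicle. The general treatment label says that mice received adenovirus by tail vein, so whether the vehicle mice were given a virus without Chrna4 is not stated. The labels also call all of the mice obese. They name neither the promoter that drives the transgene nor the cells it reached.

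Bile acids circulate between liver and gut. Hepatocytes take them up from sinusoidal blood through the sodium-dependent carrier NTCP, encoded by Slc10a1, and through sodium-independent organic anion transporters, encoded by the Slco1 genes. They export them across the canalicular membrane through the bile salt export pump, encoded by Abcb11, while Abcb4 flips phosphatidylcholine into bile and Abcc2 exports conjugated organic anions such as bilirubin glucuronides. Abcc3 lies on the basolateral side and returns conjugates to blood. The nuclear receptor FXR senses bile acids, raises transcription of Abcb11, and binds inverted repeats of AGGTCA separated by 1 base.

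Promoter windows of 250 bases before and 50 bases after the start site were taken from RefSeq (GRCm38.p6) for 7 of the 8 genes. Those of Abcb11 and of the 3 uptake genes that fell are printed, because the first carries the known FXR repeat and the others belong to genes that moved together. Capitals mark motif matches. The window of Abcb11 is chr2:69342567-69342866 (minus strand), that of Slco1b2 is chr6:141629268-141629567 (plus strand), that of Slco1a1 is chr6:141946913-141947212 (minus strand) and that of Slc10a1 is chr12:80968656-80968955 (minus strand, the first of 2 windows).
Abcb11: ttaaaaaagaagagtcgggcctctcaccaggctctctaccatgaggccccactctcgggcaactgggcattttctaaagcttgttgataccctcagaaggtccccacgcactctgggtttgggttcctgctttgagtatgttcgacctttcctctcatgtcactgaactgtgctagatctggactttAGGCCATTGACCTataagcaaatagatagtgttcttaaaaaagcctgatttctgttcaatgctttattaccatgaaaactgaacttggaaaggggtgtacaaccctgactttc
Slco1b2: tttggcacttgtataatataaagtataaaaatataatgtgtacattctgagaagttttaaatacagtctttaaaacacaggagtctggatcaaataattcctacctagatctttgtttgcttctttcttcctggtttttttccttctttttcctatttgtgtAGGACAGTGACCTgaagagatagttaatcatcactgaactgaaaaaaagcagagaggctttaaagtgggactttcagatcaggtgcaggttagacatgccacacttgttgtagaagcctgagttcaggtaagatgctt
Slco1a1: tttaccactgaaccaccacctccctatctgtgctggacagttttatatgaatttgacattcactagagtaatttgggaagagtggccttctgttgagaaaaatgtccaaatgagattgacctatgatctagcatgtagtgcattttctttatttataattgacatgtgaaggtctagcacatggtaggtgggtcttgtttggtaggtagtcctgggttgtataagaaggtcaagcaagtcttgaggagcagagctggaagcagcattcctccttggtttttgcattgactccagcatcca
Slc10a1: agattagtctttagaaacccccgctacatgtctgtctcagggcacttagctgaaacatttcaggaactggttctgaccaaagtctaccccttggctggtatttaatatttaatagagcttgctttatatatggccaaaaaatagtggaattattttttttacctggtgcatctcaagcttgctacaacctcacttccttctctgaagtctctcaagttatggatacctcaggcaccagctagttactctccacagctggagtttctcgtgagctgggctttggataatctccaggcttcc
Both strands were searched for 3 motifs, and a match read on both strands at one place was counted once. The inverted repeat AGGTCANTGACCT with at most 1 mismatch was found in 27 of 32851 promoter windows of the table (0.0822%). Among the members it was in Abcb11 (AGGCCATTGACCT, from base -63) and in Slco1b2 (AGGACAGTGACCT, from base -88). The site CAAAGTCCA of HNF4A, a hepatocyte transcription factor, was in 0.475% of windows and in no member window searched. The antioxidant response element core TGACNNNGC was in 12.4% of windows and among the members in Abcc2 (TGACATAGC, from base -98). No matches in the members overlapped each other. The letters describe these windows and do not show that a factor binds there.

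Recovered reads numbered 14959338 to 17023536 in the Chrna4-labelled libraries and 15191611 to 22440334 in the vehicle libraries. The members had between 363 and 12580 reads in each Chrna4-labelled library and between 191 and 26010 in each vehicle library, with Slco1a4 the lowest in every one. Mouse Chrna4, the labelled gene, had 3.70, 2.17 and 3.82 CPM in Chrna4-labelled livers, against 1.70, 4.99 and 3.38 CPM in vehicle livers, a log2 fold change of 0.0069 (interval -0.68 to 0.69; limma, adjusted p = 0.993), so the labelled overexpression was not seen in this gene. The labels do not state whether reads of a vector transcript would count toward it. Titles number the livers but give no other source, so p-values measure the spread between these libraries. Hepatocyte markers were abundant in every library, Alb averaging 45930 CPM in Chrna4-labelled livers and 51760 CPM in vehicle livers. Libraries differed less among the Chrna4-labelled group (chi-square per degree of freedom 10.3 to 17.7 between pairs) than among the vehicle group (47.5 to 65.7).

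The 3 main uptake genes Slco1b2, Slco1a1 and Slc10a1 each fell in Chrna4-labelled livers to between 0.413 and 0.447 times the vehicle level, while none of the 3 canalicular genes and not Abcc3 passed the test. Changes were tested with limma on log2(CPM + 1) over 12099 genes and are called at a Benjamini-Hochberg adjusted p under 0.05. Of the 8 members 3 were called lower and 0 higher; over all genes tested 10.3% were called lower and 14.2% higher, 24.5% in all. With edgeR's quasi-likelihood test on recovered reads 3 of 8 were again lower and 0 higher, against 9.4% lower and 14.1% higher of all genes (23.5% in all). The Chrna4-labelled and vehicle values did not overlap in 3 of the 8 members, against 43.0% of all genes tested. The median log2 fold change was -1.18 over the 4 uptake members, -0.093 over the 3 canalicular members and -0.0067 over all genes tested. In a bulk sample, fewer cells of a type and less RNA per cell cannot be told apart.

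Slco1b2, the mouse transporter of the OATP1B type, which carries bile acids and many drugs into hepatocytes, had 590.5, 538 and 562 CPM in Chrna4-labelled livers, against 1275, 1324 and 1291 CPM in vehicle livers. Every Chrna4-labelled library lay below every vehicle library, and the libraries of each group lay close together. The coefficient of variation was 4.65% in Chrna4-labelled livers and 1.91% in vehicle livers, the lowest among the members in the vehicle group. The log2 fold change was -1.20 with a standard error of 0.096 and a 95% interval from -1.42 to -0.98 (limma, adjusted p = 0.000283), lower in 3 of 3 libraries. The gene (ENSMUSG00000030236, protein-coding) spans bases 141629518 to 141686646 of chromosome 6 (GRCm38, plus strand).

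Slc10a1, which encodes NTCP, had 229.9, 288 and 305 CPM in Chrna4-labelled livers, against 632, 647 and 558 CPM in vehicle livers. All 3 Chrna4-labelled values were well below the lowest vehicle value. The log2 fold change was -1.16 with a standard error of 0.13 (interval -1.45 to -0.87; limma, adjusted p = 0.000954). Slc10a1 (ENSMUSG00000021135) spans bases 80953183 to 80968705 of chromosome 12 (minus strand). Slco1a1, an organic anion transporter of male mouse liver, had 231, 239 and 290.3 CPM in Chrna4-labelled livers, against 524, 698 and 626 CPM in vehicle livers. Its groups did not overlap either, and its log2 fold change of -1.28 (standard error 0.14, interval -1.59 to -0.96; limma, adjusted p = 0.000902) was the most negative of the 8. Slco1a1 (ENSMUSG00000041698) spans bases 141907282 to 141946962 of chromosome 6 (minus strand).

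**Figure D1:**
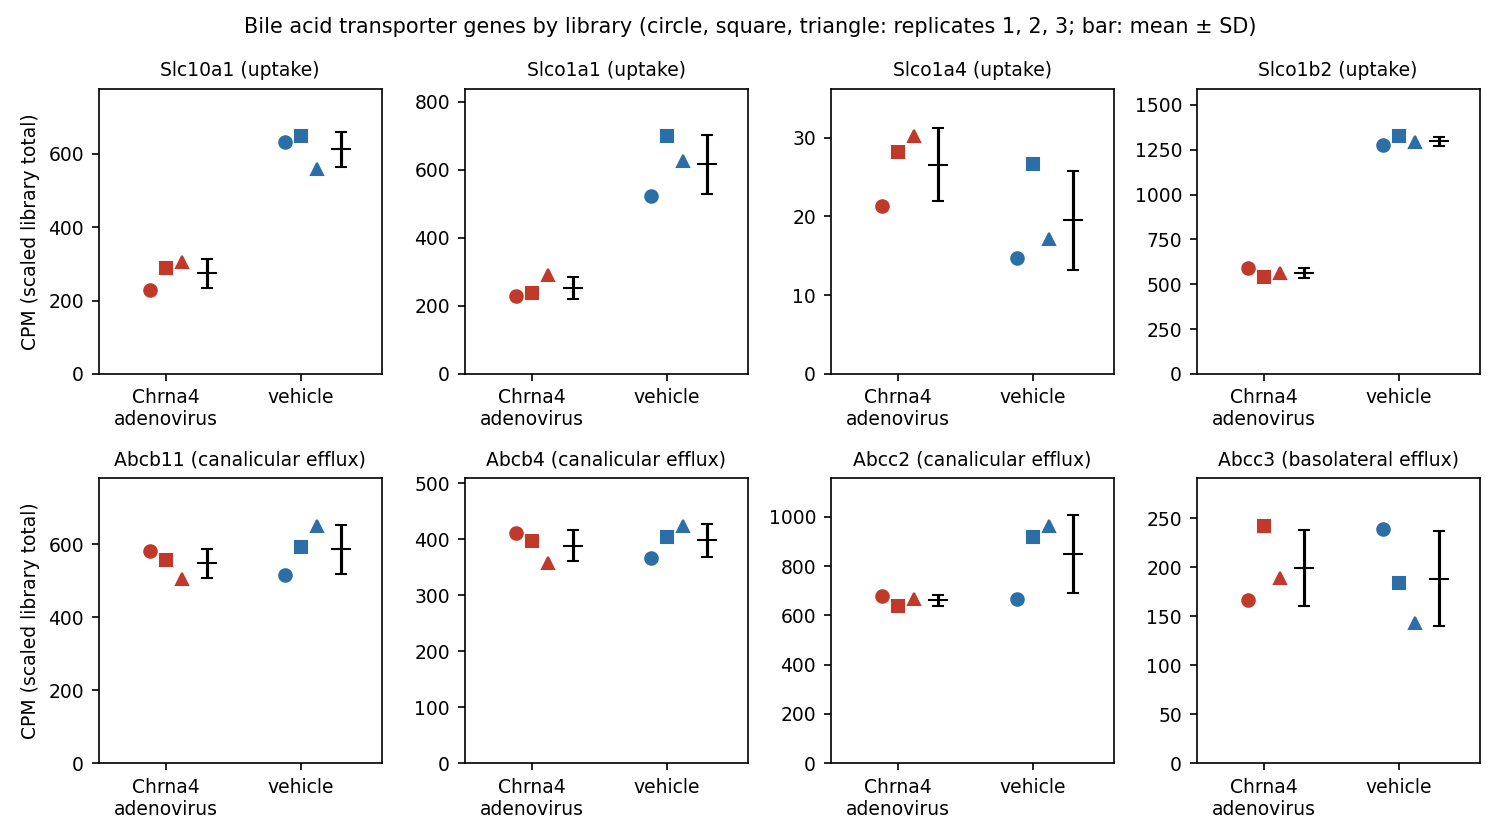
CPM (y axis, starting at 0) of the 8 transporter genes in each library, with Chrna4 adenovirus left and vehicle right. Symbols mark replicates 1 to 3, and black bars the mean and SD of 3 libraries; the groups lie apart for Slc10a1, Slco1a1 and Slco1b2 and overlap for the other 5 genes.

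The calls of these 3 genes held in all 16 other settings tried, with log2 fold changes from -1.24 to -0.72 for Slco1b2, from -1.24 to -0.80 for Slc10a1 and from -1.39 to -0.92 for Slco1a1. The smallest changes came from plain library totals and quantile normalization. With plain totals, where 40.1% of all genes were called and 2.82% were called lower, Slco1b2 had -0.87, Slc10a1 -0.83 and Slco1a1 -0.94. These totals moved the median of all genes up by 0.31. The authors' deposited table gives log2 fold changes of -1.20, -1.16 and -1.28 for the same genes in that order.

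Slco1a4, an organic anion transporter of liver and of the blood-brain barrier, was the exception among the uptake genes. It had 21.3, 28.2 and 30.1 CPM in Chrna4-labelled livers, against 14.7, 26.6 and 17.2 CPM in vehicle livers. The groups overlapped through vehicle replicate 2, and the log2 fold change of 0.45 (interval -0.042 to 0.95) did not pass the test (limma, adjusted p = 0.169). Without vehicle replicate 2 it was 0.69 and was called (limma, adjusted p = 0.0303). With plain totals it was 0.77 and was also called (limma, adjusted p = 0.0274), where 37.3% of all genes were called higher. Over the other settings the adjusted p was as high as 0.397.

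Slco1a4 lies between the other 2 Slco1 members on chromosome 6, at bases 141805440 to 141856199 (ENSMUSG00000030237, minus strand). It is 118.8 kb from Slco1b2 and 51.1 kb from Slco1a1, so a gene that did not pass the test sits between genes that fell. How reads shared by several genes were counted is not stated in the labels. Of the 50-base windows of the longest GENCODE M21 transcript, 2.73% of those of Slco1a4 and 2.26% of those of Slco1a1 occur unchanged in another gene. None of the windows of Slco1b2, Slc10a1, Abcb11 or Abcc3 did. For Abcb4 the share was 3.42%, nearly all of it with Abcb1a, and for Abcc2 0.163%.

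None of the genes for export into bile passed the test. Abcb11, the pump that secretes bile salts, had 582, 558 and 504 CPM in Chrna4-labelled livers, against 515, 593 and 651 CPM in vehicle livers. The Chrna4-labelled values lay within or just below the vehicle range. The log2 fold change was -0.093 with an interval from -0.36 to 0.17 (limma, adjusted p = 0.612). Abcb11 (ENSMUSG00000027048) is on the minus strand of chromosome 2, 69238282 to 69342616. Abcb4, the phospholipid flippase, had 411, 396 and 358 CPM in Chrna4-labelled livers, against 367, 404 and 424 CPM in vehicle livers. Its groups overlapped almost fully, and the log2 fold change was -0.036 (interval -0.27 to 0.20; limma, adjusted p = 0.836). The intervals of both genes leave out a fall as large as that of the 3 uptake genes under the authors' scaling. Under plain totals both values turned positive, at 0.24 for Abcb11 and 0.30 for Abcb4, and neither passed the test. Abcb4 (ENSMUSG00000042476) lies on the plus strand of chromosome 5, 8893717 to 8959231, 27.4 kb from Abcb1b.

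Abcc2, the canalicular exporter MRP2, gave a less settled value. It had 680.1, 637 and 667 CPM in Chrna4-labelled livers, against 666, 916 and 963 CPM in vehicle livers. Vehicle replicate 1 lay among the Chrna4-labelled libraries and the other vehicle libraries above them. The log2 fold change of -0.34 (standard error 0.15, interval -0.68 to -0.0075) did not pass the test over all genes (limma, adjusted p = 0.129; the authors' deposited table gives 0.111). Without vehicle replicate 1 it was -0.51 and was called lower (limma, adjusted p = 0.00401), where 11.7% of all genes were called lower and 15.8% higher (27.5% in all). With plain totals it was -0.0074, so its direction rests on the scaling. Abcc2 (ENSMUSG00000025194) lies on chromosome 19, 43782192 to 43840740.

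Abcc3, the basolateral exporter MRP3, varied among libraries more than it differed between groups. It had 167, 242 and 189 CPM in Chrna4-labelled livers, against 239, 183 and 143 CPM in vehicle livers. High and low libraries occurred in both groups, and the log2 fold change of 0.095 had an interval from -0.36 to 0.55 (limma, adjusted p = 0.772). It was -0.089 without vehicle replicate 3 and 0.28 without vehicle replicate 1, and neither passed the test. Abcc3 (ENSMUSG00000020865) lies on the minus strand of chromosome 11, 94343295 to 94392997.

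**Figure D2:**
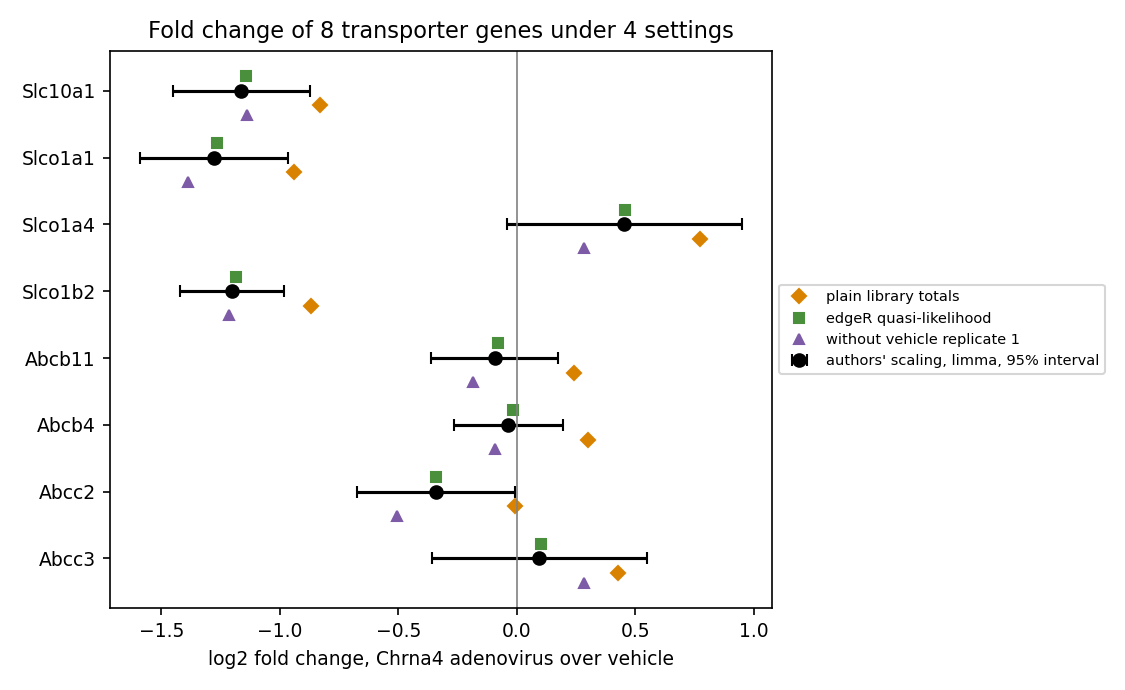
Log2 fold change, Chrna4 adenovirus over vehicle (x axis), of the 8 genes under 4 settings; black points carry the 95% interval of limma. Slc10a1, Slco1a1 and Slco1b2 lie left of 0 under each of the 4, while the orange points of plain library totals lie to the right of the others in every gene.

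Ratios of reads within a library do not depend on how libraries are scaled. For each Abcb11 read there were 0.395, 0.517 and 0.604 reads of Slc10a1 in Chrna4-labelled livers, against 1.23, 1.09 and 0.856 in vehicle livers. Slco1b2 gave 1.01, 0.965 and 1.11 reads per Abcb11 read in Chrna4-labelled livers, against 2.48, 2.23 and 1.98 in vehicle livers. Slco1a1 gave 0.396, 0.429 and 0.576 in Chrna4-labelled livers, against 1.02, 1.18 and 0.961 in vehicle livers. In all 3 ratios of uptake to the bile salt pump, each Chrna4-labelled library was below each vehicle library. By contrast, Abcb4 kept a narrow ratio to Abcb11, 0.706, 0.711 and 0.711 in Chrna4-labelled livers and 0.712, 0.682 and 0.651 in vehicle livers. The means were 0.709 ± 0.0025 and 0.682 ± 0.0305 in that order (SD, n = 3 each). No p is given for these ratios, since the genes were chosen with earlier results of these data known.

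**Figure D3:**
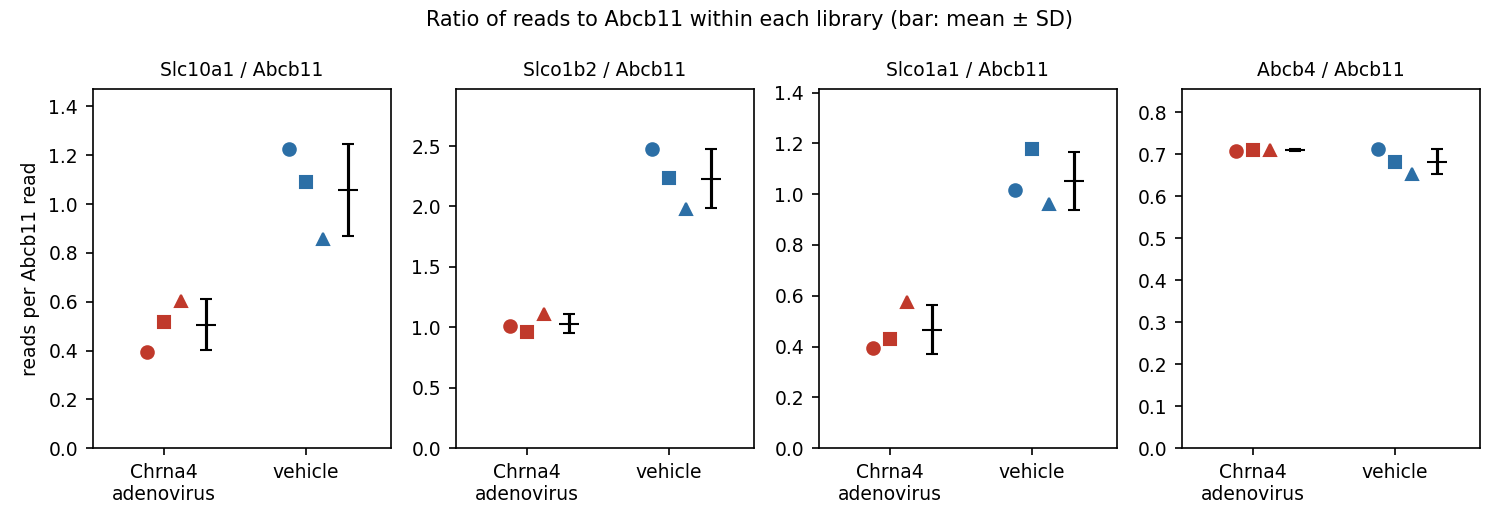
Reads of Slc10a1, Slco1b2, Slco1a1 and Abcb4 per read of Abcb11 in the same library (y axis from 0), Chrna4 adenovirus left and vehicle right, with the mean and SD of 3 libraries. The 3 uptake ratios are lower in each Chrna4-labelled library, and Abcb4 stays between 0.651 and 0.712 in all 6.

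The same held against Alb, the albumin gene, an abundant hepatocyte transcript. There were 5.10, 6.64 and 6.18 Slc10a1 reads per 1000 Alb reads in Chrna4-labelled livers, against 13.0, 11.9 and 10.7 in vehicle livers. For Abcb11 the values were 12.9, 12.8 and 10.2 in Chrna4-labelled livers, against 10.6, 10.9 and 12.5 in vehicle livers, which overlap. The mean log2(CPM + 1) of the 4 uptake genes minus that of the 3 canalicular genes was -1.75, -1.52 and -1.32 in Chrna4-labelled livers, against -0.81, -0.75 and -1.10 in vehicle livers. The mean of this difference was lower by 0.64 in Chrna4-labelled livers. Against Abcc3, the uptake mean lay at -0.040, -0.42 and 0.065 in Chrna4-labelled livers and at 0.25, 0.96 and 1.07 in vehicle livers. Abcc3 gave 0.725, 0.840 and 0.621 reads per Slc10a1 read in Chrna4-labelled livers, against 0.378, 0.283 and 0.256 in vehicle livers.

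Levels of different genes were compared as CPM per kb of exon, with exon lengths from GENCODE M21. The length counts every exonic base of a gene once and can exceed that of its longest transcript. For Slco1b2 it is 4929 bases against 3307, and for Abcb4 9383 against 4079. The order of genes and the overlaps between them depend on this choice, and no other length was tried. In Chrna4-labelled livers the order was Slc10a1 at 125, Slco1b2 at 114, Abcb11 at 106, Abcc2 at 77.5, Slco1a1 at 48.0, Abcb4 at 41.4, Abcc3 at 35.0 and Slco1a4 at 4.14 CPM per kb (means of 3 libraries). The ranges of Slc10a1, Slco1b2 and Abcb11 overlapped from neighbour to neighbour, as did those of Slco1a1, Abcb4 and Abcc3. In vehicle livers Slc10a1 and Slco1b2 stood above the rest, at 278 and 263 CPM per kb, and their ranges overlapped. Slco1a1 at 117, Abcb11 at 114 and Abcc2 at 99.5 followed, again with overlapping ranges, then Abcb4 at 42.5, Abcc3 at 33.1 and Slco1a4 at 3.04 CPM per kb. By these lengths, the range of the pump gene Abcb11 overlapped that of Slco1b2 in Chrna4-labelled livers. In vehicle livers it lay below those of Slc10a1 and Slco1b2.

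Expressed as a share of the reads per kb of the 8 genes, with the same exon lengths, uptake genes made up 50.5%, 52.0% and 55.8% in Chrna4-labelled livers. In vehicle livers they made up 71.4%, 70.1% and 67.3%. Canalicular genes made up 44.1%, 40.4% and 38.3% in Chrna4-labelled livers, against 24.0%, 26.6% and 30.1% in vehicle livers. The groups did not overlap in either share, which follows from the 3 genes that fell. Abcc3 held 5.44%, 7.62% and 5.93% in Chrna4-labelled livers, against 4.62%, 3.23% and 2.64% in vehicle livers.

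**Figure D4:**
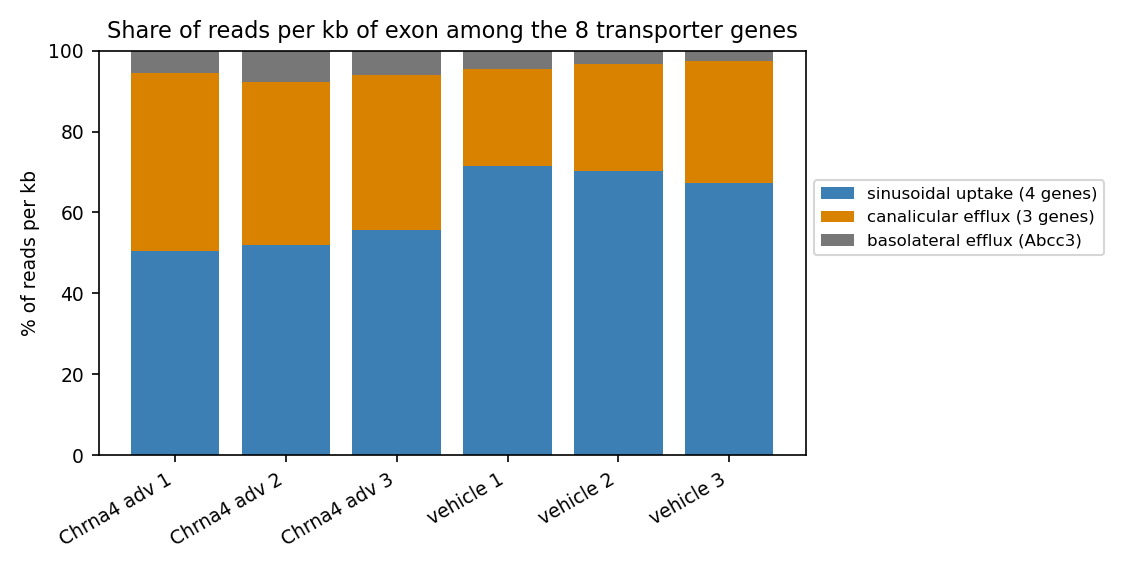
Share of reads per kb of exon (y axis, percent) that uptake, canalicular and basolateral genes hold among the 8 genes, 1 bar per library. The blue uptake share is 50.5% to 55.8% in the Chrna4-labelled libraries and 67.3% to 71.4% in the vehicle libraries.

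The genes whose pattern over the 6 libraries was closest to that of a member were found by Pearson correlation of log2(CPM + 1), given as a description. For Slc10a1 they were Suox, the sulfite oxidase gene (r = 0.999), and the cytochrome P450 genes Cyp2c37 (0.995) and Cyp2c54 (0.994). Those of Abcb11 were Rprd1a (0.987), Crbn (0.986) and Qtrt1 (0.984), and those of Abcc3 were Dele1 (0.995), Orai1 (0.979) and Fbln2 (0.977). With 6 libraries in 2 groups, values for genes that differ between the groups reflect that difference. Within groups, Abcb11 and Abcb4 deviated together, with a correlation of 0.977 of their deviations from the group means over the 6 libraries. Abcb11 and Abcc2 gave 0.809, and Abcc3 ran against each canalicular gene, at -0.713 with Abcb11, -0.602 with Abcb4 and -0.835 with Abcc2. Values of this size were not particular to export genes. Abcc3 gave -0.639 with the uptake gene Slco1b2, and Slco1a1 gave 0.851 with Slco1a4. Slc10a1 gave -0.676 with Abcb11, -0.725 with Abcb4 and 0.621 with Abcc3. These pairs were picked from all pairs of members over 6 libraries, and none was tested.

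Other liver transporters were called in both directions. The counts of this list and of those below stand beside 10.3% lower and 14.2% higher over all genes tested. With plain totals these shares were 2.82% and 37.3%. Of 17 tested, 5 fell and 2 rose, with a median log2 fold change of 0.0047. Slc22a7, a hepatic uptake carrier of organic anions, averaged 23.3 ± 1.99 CPM in Chrna4-labelled livers and 115 ± 25.4 CPM in vehicle livers (SD, n = 3 each), a log2 fold change of -2.23 (limma, adjusted p = 0.000240). Also among those that fell were Slco2b1, a further organic anion transporter (-0.57), Abcg2, which exports xenobiotics (-0.57), and Abcg8, a subunit of the canalicular sterol exporter (-0.38), all named after their values were seen. The rises were those of Abcc1, an exporter of conjugates, at 7.48 ± 0.297 CPM in Chrna4-labelled livers and 3.40 ± 0.540 CPM in vehicle livers (0.95; limma, adjusted p = 0.00340), and Abcb1a, a multidrug exporter (0.78; limma, adjusted p = 0.0427). The groups overlapped for Abcb1a. Of the 17, 2 fell and 2 rose with plain totals, and Slc22a7 still fell. There Slco2b1, Abcg2 and Abcg8 lost their calls (limma, adjusted p = 0.152, 0.158 and 0.752). Without vehicle replicate 1, 5 of the 17 fell and 1 rose.

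Genes of bile acid synthesis and conjugation fell in 10 of 16 tested, and none rose. Among them were Cyp27a1, which starts the alternative pathway, at 407 ± 32.9 CPM in Chrna4-labelled livers and 694 ± 52.8 CPM in vehicle livers (log2 fold change -0.77; limma, adjusted p = 0.00225). Slc27a5, the ligase that activates bile acids for conjugation, averaged 505 ± 62.9 CPM in Chrna4-labelled livers and 934 ± 89.3 CPM in vehicle livers (-0.89; limma, adjusted p = 0.00265). Cyp7a1, the rate-limiting enzyme of the classical pathway, averaged 124 ± 12.3 CPM in Chrna4-labelled livers and 115 ± 35.8 CPM in vehicle livers and did not pass the test (0.16, interval -0.33 to 0.65; limma, adjusted p = 0.646). The median of the list was -0.55, and -0.22 with plain totals, where 6 fell and 1 rose.

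Of 19 tested regulators of transporter genes, 1 fell and 0 rose, with a median of -0.20; with plain totals 1 fell and 4 rose, with a median of 0.13. The one was Nr1i3, which encodes the xenobiotic sensor CAR, at 17.1 ± 3.44 CPM in Chrna4-labelled livers and 62.5 ± 28.1 CPM in vehicle livers (-1.75; limma, adjusted p = 0.00363). Nr1h4, the gene of FXR, averaged 121 ± 6.04 CPM in Chrna4-labelled livers and 174 ± 46.8 CPM in vehicle livers, and its log2 fold change of -0.48 (interval -0.87 to -0.096) did not pass (limma, adjusted p = 0.0718). Nr0b2, the FXR target SHP that represses other genes, averaged 33.1 ± 11.8 CPM in Chrna4-labelled livers and 32.4 ± 5.89 CPM in vehicle livers (-0.012, interval -0.57 to 0.55; limma, adjusted p = 0.981). Hnf4a, which encodes a hepatocyte factor, had a log2 fold change of -0.20 and did not pass either (limma, adjusted p = 0.345). Without vehicle replicate 1, 5 regulators fell and 2 rose.

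Scaffold and trafficking genes of the canalicular membrane had 4 higher and 1 lower of 14 tested, with a median of 0.011. The membrane linker genes Msn (1.30) and Ezr (0.73) rose, and Slc9a3r1, which encodes the scaffold NHERF1, fell (-0.45), with adjusted p-values between 0.00533 and 0.0103 (limma). Msn is also expressed in leukocytes and endothelium, and it averaged 81.7 ± 1.45 CPM in Chrna4-labelled livers and 34.6 ± 13.5 CPM in vehicle livers. With plain totals 8 rose and 0 fell, where 37.3% of all genes were called higher. Targets of NRF2, the oxidant-responsive factor known to raise Abcc2 and Abcc3 in mouse liver, rose in 11 of 15 tested, and none fell. They included the glutathione transferase genes Gstm3 (3.21) and Gsta1 (2.57), with adjusted p-values of 7.39e-05 and 0.000369 (limma). Gsta1 was low in vehicle livers, at 0.23, 1.02 and 0.94 CPM. Abcc2 and Abcc3 did not pass, and the part of NRF2 in the transporter values was not tested.

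**Figure D5:**
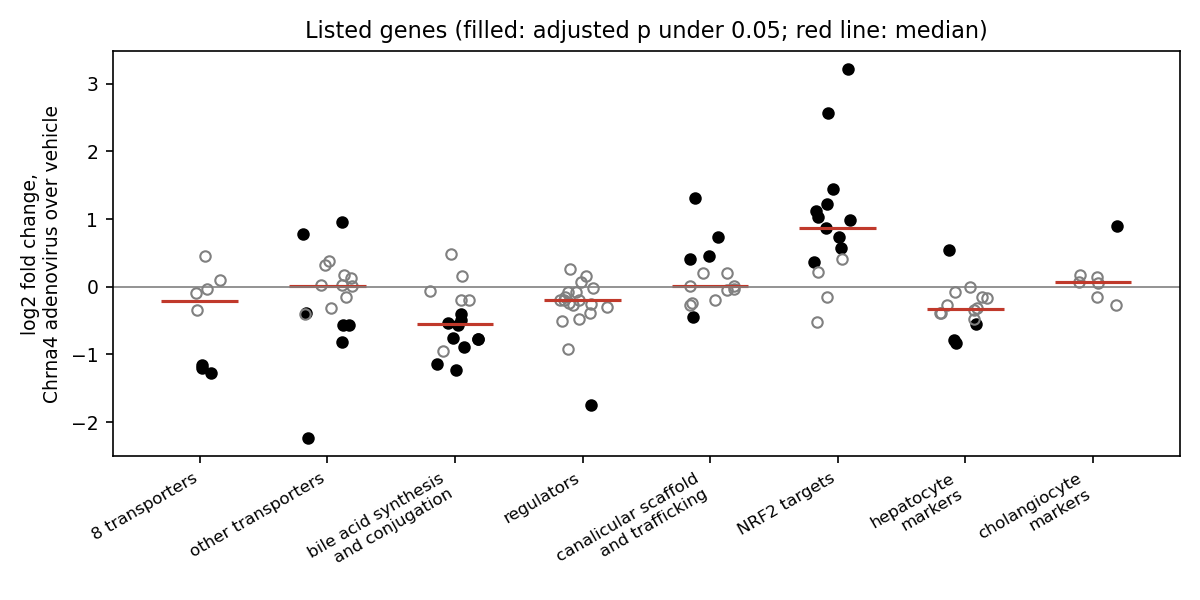
Log2 fold change, Chrna4 adenovirus over vehicle (y axis), of the 8 transporters and of the tested genes of 7 lists, 1 point per gene with red lines at the medians. Filled points passed an adjusted p of 0.05; the bile acid synthesis list holds 10 filled points below 0, the NRF2 list 11 above 0.

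Levels of cell type markers differed between the groups as well, and their part in the falls of Slco1b2, Slc10a1 and Slco1a1 was not tested. The 14 hepatocyte markers in the table summed to between 93123 and 103956 CPM in Chrna4-labelled livers, against 106506 to 120015 CPM in vehicle livers; 3 fell, 1 rose, and the median was -0.33, or 0.0050 with plain totals. Ttr (-0.84) and Asgr1 (-0.78) were among those that fell, and Hpx rose (0.54), with adjusted p-values between 0.00758 and 0.0251 (limma). Under plain totals 1 fell and 1 rose, and Asgr1 lost its call (limma, adjusted p = 0.0534). Macrophage markers summed to between 993 and 1090 CPM in Chrna4-labelled livers, against 286 to 744 CPM in vehicle livers, with 7 of 12 tested higher and 1 lower. Gpnmb (4.41) and Trem2 (2.36) rose, and Timd4 fell (-2.78). Stellate cell and matrix markers summed to between 599 and 652 CPM in Chrna4-labelled livers, against 199 to 222 CPM in vehicle livers. Of 11 tested 7 were higher, among them the collagen genes Col1a2 (2.52) and Col1a1 (3.31). The stellate cell markers Lrat (0.27), Reln (0.31), Des (0.44) and Acta2 (0.39) had overlapping groups and did not pass, and Tagln was below the filter. With plain totals 10 of the 11 were called higher, all but Acta2. Lymphocyte markers summed to between 68.5 and 75.9 CPM in Chrna4-labelled livers, against 10.9 to 26.9 CPM in vehicle livers, with 6 of 10 tested higher, among them Gzma (2.70) and Jchain (2.70). Endothelial markers overlapped in their sums, at 482 to 598 CPM in Chrna4-labelled livers and 469 to 625 CPM in vehicle livers; Lyve1 rose (1.38), and Clec4g (-0.41) and Vwf (-0.87) fell. With plain totals 3 endothelial markers rose and 0 fell, and Clec4g and Vwf lost their calls (limma, adjusted p = 0.549 and 0.0663). Without vehicle replicate 1, markers lower numbered 5 for hepatocytes, 4 for macrophages and 4 for endothelium. Markers higher in that fit numbered 1, 7 and 1 in the same order.

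Cholangiocytes line the bile ducts and express some of the same exporters. Their markers summed to between 222 and 230.4 CPM in Chrna4-labelled livers, within the 185 to 258 CPM of vehicle livers. Of 7 tested, 1 rose, Sox9 (0.90; limma, adjusted p = 0.0234). The defining keratin gene Krt19 averaged 0.566 ± 0.133 CPM in Chrna4-labelled livers and 0.915 ± 0.229 CPM in vehicle livers, and Krt7 averaged 0.490 ± 0.377 CPM in Chrna4-labelled livers and 0.589 ± 0.264 CPM in vehicle livers. Epcam, a further duct marker, averaged 0.578 ± 0.314 CPM in Chrna4-labelled livers and 1.37 ± 0.182 CPM in vehicle livers. Krt19, Krt7 and Epcam were below the filter and were not tested. Under the authors' scaling, Krt19 and Epcam were lower in each Chrna4-labelled library than in each vehicle library. Among all genes tested, 43.0% also had groups that did not overlap. Both genes lay near the floor, where 1 read was 0.0496 to 0.0772 CPM, and neither was compared with plain totals. Cftr and Sctr were at 0 in at least 1 library. The most abundant of the list were Aqp1, at 93.0 ± 8.43 CPM in Chrna4-labelled livers and 105 ± 26.8 CPM in vehicle livers, and Spp1, at 51.4 ± 14.2 CPM in Chrna4-labelled livers and 45.8 ± 13.4 CPM in vehicle livers, and neither passed the test. The part of these cells in the transporter values was not tested.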

How the data were processed

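Liver RNA of 6 mice (3 Chrna4-labelled, 3 vehicle) was sequenced as polyadenylated RNA in 150 bp pairs, per the labels' protocols. Per the submitters' processing notes, TopHat2 and HTSeq were used with mm10 or GRCm38; their versions and roles, the annotation and the handling of strand and shared reads are not given in the sources. The deposited signal is a CPM whose library total the authors had scaled: 100% of values lay within 0.01 of a whole multiple of 1 read, so reads were recovered. The deposited table also holds the authors' log2 fold change, mean log2 abundance, p-value and adjusted p-value.

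The test was limma 3.58.1 (R 4.3.3; eBayes with a trend) on log2(CPM + 1) of 12099 genes with a mean of at least 1 CPM, adjusted by Benjamini-Hochberg over all of them; 2393 were not tested. Fold changes are on the log2(CPM + 1) scale, on which low genes appear to change less. The fit was first tested on simulated data. Recovered reads were also tested with edgeR 4.0.16 (quasi-likelihood, 2841 genes called) and DESeq2 1.42.0. Members and gene lists were chosen with earlier results of these data known. The genes named are the 8 members, Chrna4, the genes closest in pattern to Slc10a1, Abcb11 and Abcc3 (3 each, predicted genes left out), and from each of 11 lists up to 2 called genes per direction with the lowest p, except for results not reported here; Cyp7a1, Nr1h4, Nr0b2, Hnf4a, Alb, Krt7, Krt19, Cftr, Sctr, Aqp1, Spp1 and the transporters so marked were named after their values were seen. Libraries of a group differed beyond sampling noise (chi-square per degree of freedom 10.3 to 65.7), so each counts as 1 sample. Both other deposited sheets hold a selection of rows with none of the 8 members and were not used.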

Additional observations from a re-analysis of the deposited data

How the results depend on the processing

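The falls of Slc10a1, Slco1a1 and Slco1b2 kept direction and call under the 16 alternatives: 2 other pseudocounts, no filter and a stricter one, plain totals, quantile normalization, limma without a trend, edgeR, DESeq2, 6 fits that left out 1 library each, and a replicate block, which was added after the data were seen. The count of members lower was 3 in each except without vehicle replicate 1, where Abcc2 made it 4. Plain totals gave 4852 genes changed in place of 2962 and 1 member higher, Slco1a4, in place of 0. Leaving out 1 library gave 1442 to 3331 genes changed (1866, 1442 and 1696 without Chrna4-labelled replicate 1, 2 and 3) and 0 to 1 members higher, with no member higher except Slco1a4 without vehicle replicate 2. No canalicular gene nor Abcc3 was called under any of the 16, except Abcc2 without vehicle replicate 1. Direction turned for Abcb11 (0.24 with plain totals, 0.33 with quantile normalization), for Abcb4 (0.30 and 0.34 in the same order) and for Abcc2 (0.15 with quantile normalization); the cause was not tested beyond the shift of 0.31 in the median of all genes with plain totals. Leaving out 1 library gave -0.094 to 0.022 for Abcb4 and -0.089 to 0.28 for Abcc3. The numbers in the column names gave no sign of pairing: deviations of same-numbered libraries correlated at -0.065, -0.018 and 0.021. With 3 libraries per group, a weak pairing or one limited to some genes could be missed. With a replicate block 2418 genes changed and the 8 members kept their calls. Slco1a4, with 191 to 569 reads per library, is the member whose precision depth limits most.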
